A study of Mus musculus with 18 samples.

Results

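Meis1, Meis2, Meis3, Pbx2, Pbx3, Pknox1, Pknox2 and Tgif1 encode homeodomain proteins of the TALE class, most of them DNA-binding partners of HOX proteins. They were taken by gene symbol from the deposited table of levels, which gave 8 genes of the 19938 measured, and each was read by 1 probe set. The cells were of the F9 line, mouse embryonal carcinoma cells that retinoic acid drives out of the stem cell state. They were given ethanol as vehicle for 48 h (2 arrays), or 1 of 4 retinoids for 2, 6, 24 or 48 h (1 array for each retinoid and time, 18 arrays in all). All-trans retinoic acid (ATRA), which activates every retinoic acid receptor, was added at 1 µM, as were BMS753, labelled RARα-specific, and BMS641, labelled RARβ-specific. BMS961, labelled RARγ-specific, was added at 0.1 µM, so its values stand beside those of the other compounds at a different dose. Both vehicle arrays were taken at 48 h, so an array at another time differed from them in culture time as well as in retinoid.

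TALE homeodomain proteins carry an extra loop in the homeodomain. PBX proteins bind DNA together with HOX proteins, and a MEIS or PKNOX (also called PREP) protein can join the pair on neighbouring bases. MEIS and PKNOX proteins also bind PBX away from DNA and help to hold it in the nucleus. Meis1 and Meis2 are known targets of retinoic acid in the vertebrate limb bud. TGIF1 is a TALE protein of another kind, a repressor that recruits corepressors to SMAD proteins and can bind at retinoid X receptor sites.

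The promoters of Meis1, Meis2 and Pbx2 are printed because these members passed the test late in ATRA against vehicle, given below, and had a promoter entry. Pknox2 passed as well but had no entry. Each line gives the 250 bases before the start site of the RefSeq gene model (GRCm38.p6), 5′ to 3′ along the gene, with CpG dinucleotides in capitals. The Meis1 window is chr11:19018970-19019219 on the minus strand, with 59.6% G and C and 13 CpG. Meis2 is shown at chr2:116064620-116064869, also on the minus strand, with 47.6% and 7 CpG. The Pbx2 window, chr17:34592009-34592258 on the plus strand, held 77.6% and 27 CpG.
Meis1 promoter: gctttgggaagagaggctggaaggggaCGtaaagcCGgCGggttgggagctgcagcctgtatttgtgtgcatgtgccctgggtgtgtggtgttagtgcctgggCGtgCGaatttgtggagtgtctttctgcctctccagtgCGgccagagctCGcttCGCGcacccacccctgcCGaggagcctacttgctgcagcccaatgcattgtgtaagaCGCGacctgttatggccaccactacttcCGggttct
Meis2 promoter: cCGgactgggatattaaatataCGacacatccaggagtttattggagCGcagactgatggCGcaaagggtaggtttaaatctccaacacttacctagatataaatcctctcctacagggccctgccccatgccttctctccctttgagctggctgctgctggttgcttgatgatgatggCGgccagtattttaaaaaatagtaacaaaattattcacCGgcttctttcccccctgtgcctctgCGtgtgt
Pbx2 promoter: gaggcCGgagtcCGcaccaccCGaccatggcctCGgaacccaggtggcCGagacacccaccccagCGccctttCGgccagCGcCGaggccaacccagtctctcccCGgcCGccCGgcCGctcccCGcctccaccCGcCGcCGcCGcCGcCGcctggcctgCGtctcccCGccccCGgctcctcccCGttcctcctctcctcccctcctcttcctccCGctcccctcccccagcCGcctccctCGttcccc
Over all 32851 promoter windows the median was 52.40% G and C and 6 CpG, and the 90th percentile was 25 CpG. Pbx2 therefore lay above that percentile, while Meis2 lay near the median. The Meis1 and Meis2 start sites used by the table lie 682 and 2918 bases inside the outer end of their genes, so these windows are not the promoter of the longest gene model. Half-sites of retinoid receptors were searched on both strands of the window of 300 bases that also takes in 50 bases after the start. The half-site AGGTCA was in 16.3% of all windows, AGTTCA in 14.0%, GGGTCA in 13.7% and GGTTCA in 10.4%. Any of the 4 was in 43.7%, and none was in the windows of Meis1, Meis2 or Pbx2. Direct repeats of these half-sites spaced by 2 or 5 bases, which contain the single half-sites, were in 0.268% and 0.097% of all windows. The MEIS core TGACAG was in 19.2% of all windows and the PBX and HOX core TGATTNAT in 3.22%. None of these was in the 3 printed genes' windows. Meis3 had 1 AGTTCA, on the minus strand. Tgif1 had 5 windows, 4 of which held a half-site. Pbx3, Pknox1 and Pknox2 are named without a sequence.

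Levels are log2 values of the probe sets as deposited, between 2.05 and 14.36 over the table, with array medians from 5.31 to 5.47. A difference of 1 is 2-fold. Levels of different genes come from different probes and are not set against each other. Markers of F9 stem cells were measured for 8 of 8 genes, and Pou5f1 lay at 12.20 and 12.08 in the vehicle arrays. The vehicle arrays differed from each other by a median of 0.23 over all genes, and by at least 2-fold for 665 genes, none of them a member. The labels do not say whether they came from separate cultures, so p-values here measure only the spread between these samples, which may be technical. Among 12146 probe sets with no listed gene, vehicle replicate 1 and the 4 ATRA arrays varied together (mean correlation 0.28 within these 5 arrays, -0.19 with the other 13), while vehicle replicate 2 and the BMS arrays did not (0.00). No label names such a set. If it is technical, it cannot be told apart from ATRA when ATRA is compared with a BMS compound, and values with the set as a block are given where they end a call. In RNA from whole cultures, more cells of a type and more RNA per cell cannot be told apart.

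Among the MEIS genes, Meis1 had the widest range. In vehicle it lay at 4.93 and 5.16 (mean 5.05 ± 0.16, SD, n = 2). In ATRA it lay at 5.19, 5.15, 5.91 and 8.91 at 2, 6, 24 and 48 h. In BMS961 the levels were 4.92, 5.04, 7.07 and 7.51. ATRA and BMS961 thus started within or next to the vehicle pair and left it by 24 h, BMS961 by more than ATRA at 24 h (a gap of 1.17) and ATRA by more at 48 h (a gap of 1.41). In BMS753 Meis1 was lower, at 4.85, 5.01, 5.73 and 6.26. BMS641 gave 4.87, 5.20, 5.24 and 5.08, with no array more than 0.08 above the higher vehicle array. From the nearer vehicle array, Meis1 at 48 h was 13.5-fold higher in ATRA, 5.08-fold in BMS961 and 2.13-fold in BMS753. Over the 18 arrays it spanned 4.06, or 16.7-fold, a wider range than that of 99.8% of genes.

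Meis2, the second member of the same subfamily, lay in vehicle at 7.02 and 6.95 (6.99 ± 0.05, SD, n = 2). In ATRA it lay at 7.28, 6.72, 8.49 and 9.68. In BMS961 it lay at 6.80, 7.28, 8.40 and 8.53. Both retinoids gave levels on either side of vehicle up to 6 h and levels far above it from 24 h. BMS753 gave 6.77, 7.13, 7.56 and 8.12, a climb that was smaller at 24 h. BMS641 gave 6.74, 6.58, 7.13 and 7.03, and at 48 h lay within 0.01 of vehicle replicate 1. At 48 h the order was ATRA, BMS961, BMS753 and then BMS641 with the vehicle arrays, as for Meis1. The gaps between neighbours in that order down to BMS753, and from BMS753 to the next array, ran from 0.41 to 1.15, each wider than the 0.07 between the vehicle arrays.

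Meis3 departed at 1 time in the main. It lay at 5.84 and 5.72 in vehicle and at 5.75, 5.69, 5.86 and 6.87 in ATRA. The 48 h ATRA array was the highest of all 18, at 2.04-fold over the nearer vehicle array. BMS961 gave 6.02, 5.69, 5.87 and 6.17, and its 48 h array was next in order at that time. The BMS753 levels of 6.01, 5.60, 5.82 and 5.83 and the BMS641 levels of 5.69, 5.93, 5.58 and 5.72 lay on both sides of vehicle.

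**Figure D1:**
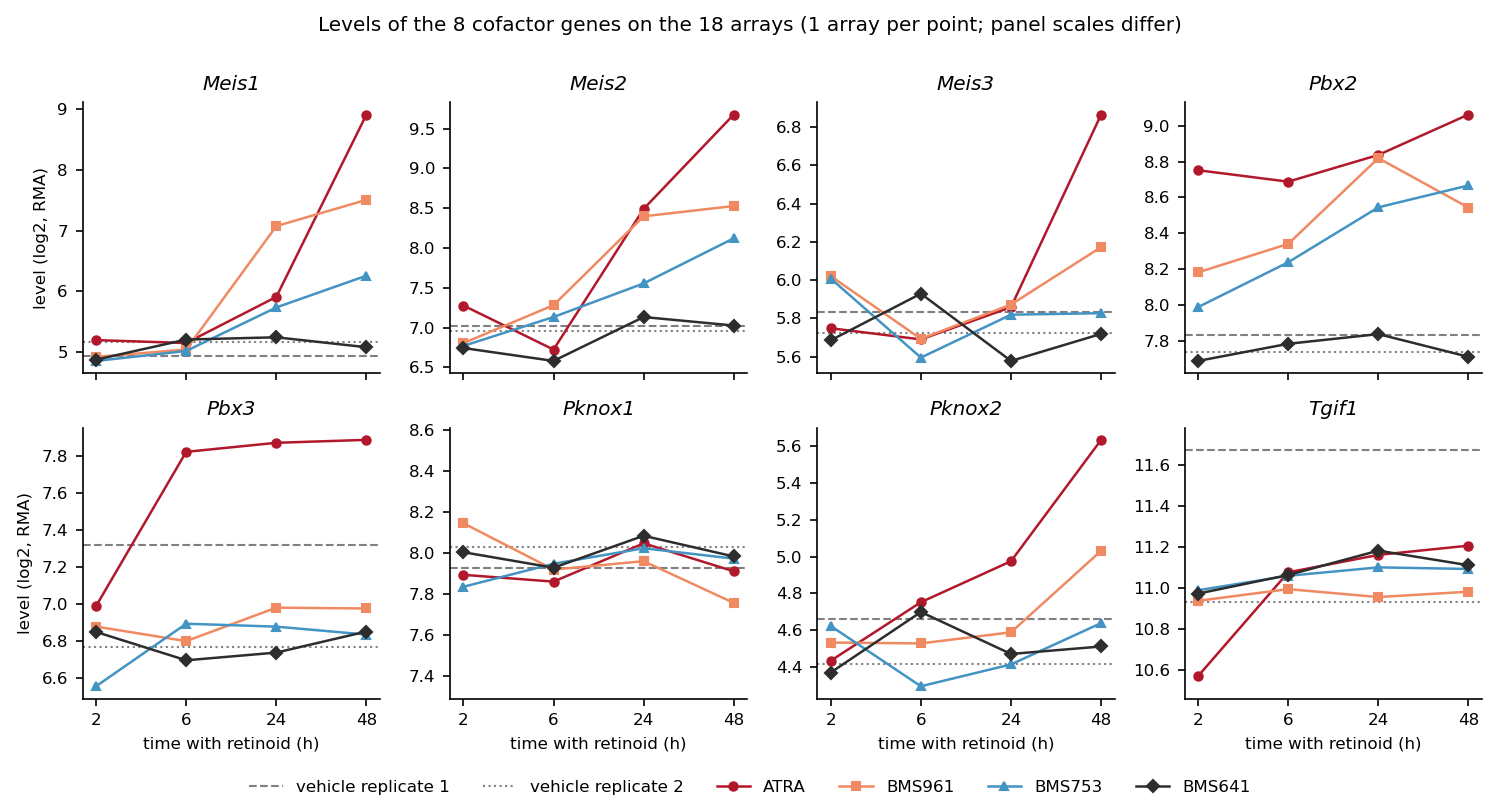
Log2 level of each of the 8 genes (vertical axis, own scale per panel) against time in hours, 1 line per retinoid and 1 array per point. The dashed and dotted lines are vehicle replicates 1 and 2 at 48 h. Meis1 and Meis2 climb after 6 h in ATRA, BMS961 and BMS753, and Meis2 in BMS641 goes from 6.58 at 6 h to 7.13 at 24 h. Pbx2 in ATRA is already above both vehicle lines at 2 h (8.75), and Pknox1 stays between 7.76 and 8.14.

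Pbx2, the PBX gene with the clearest response, was high in ATRA from the first time point. Vehicle lay at 7.83 and 7.74 (7.78 ± 0.07, SD, n = 2). ATRA gave 8.75, 8.69, 8.84 and 9.06, so that at 2 h it stood 1.89-fold above the nearer vehicle array. All 4 ATRA arrays lay above both vehicle arrays and moved little between 2 and 24 h. BMS961 gave 8.18, 8.34, 8.82 and 8.54. BMS753 gave 7.99, 8.24, 8.54 and 8.67. These arrays were also all above vehicle, with a slower climb than in ATRA. BMS641 gave 7.69, 7.78, 7.84 and 7.71, around the vehicle pair. At 48 h the order was ATRA, BMS753, BMS961, vehicle and BMS641, and the 0.12 between BMS753 and BMS961, at different doses, was close to the 0.10 between the vehicle arrays.

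Pbx3 had a different course. It lay at 7.32 and 6.77 in vehicle, which is a wide pair. ATRA gave 6.99 at 2 h, between the vehicle arrays, and then 7.82, 7.87 and 7.89 at 6, 24 and 48 h, above both. In the 12 BMS arrays it ranged from 6.55 to 6.98, all below vehicle replicate 1. The ATRA arrays from 6 h stood 1.42- to 1.48-fold above vehicle replicate 1, the nearer of the pair.

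Of the PKNOX genes, Pknox1, whose protein also pairs with PBX, had the narrowest range. It lay at 7.92 and 8.03 in vehicle and between 7.76 (BMS961 at 48 h) and 8.14 (BMS961 at 2 h) over all arrays. Its range of 0.39 was smaller than that of most genes, since 7.43% of genes had a smaller one. Pknox2 lay near the low end of the scale, at 4.66 and 4.42 in vehicle, and ATRA gave 4.43, 4.75, 4.98 and 5.64. BMS961 gave 4.53, 4.53, 4.59 and 5.03, while the BMS753 and BMS641 arrays ranged from 4.30 to 4.70. The 48 h ATRA array was the highest, and the 48 h BMS961 array the next. No detection call was at hand for these probe sets, and fold changes of dim probe sets are understated.

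Tgif1, the corepressor-recruiting member, was set apart by a single vehicle array. Vehicle replicate 1 lay at 11.67 and replicate 2 at 10.93. ATRA gave 10.57, 11.08, 11.16 and 11.21, and the 12 BMS arrays ranged from 10.94 to 11.18. Replicate 1 was thus above all 16 retinoid arrays. At 48 h the vehicle arrays were the highest and the lowest, 0.74 apart, with all the retinoid arrays between them.

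Each retinoid's 2 h and 6 h arrays were averaged as early and its 24 h and 48 h arrays as late, and tested with limma over all 19938 genes, with a call at a Benjamini-Hochberg adjusted p under 0.05. Early and late each join different times and are not replicates. The 8 comparisons with vehicle share the same 2 vehicle arrays.

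Late in ATRA, 4 of the 8 members rose and none fell, against 4.71% of all genes called and 3.31% called higher. Meis2 rose by 2.10 ± 0.29 (log2 ± SE), or 4.29-fold (95% interval of the log2 change 1.48 to 2.72, adjusted p = 0.00319). Pbx2 rose by 1.17 ± 0.14, or 2.24-fold (0.86 to 1.47, adjusted p = 0.00166). Both genes stayed past the threshold in each of the 11 other settings run, not all of them separate checks, Meis2 at 1.61 to 2.60 and Pbx2 at 1.01 to 1.33. Meis1 rose by 2.36 ± 0.52, or 5.14-fold (adjusted p = 0.0283), the wide error going with its levels of 5.91 at 24 h and 8.91 at 48 h. Without the 48 h ATRA array it was 0.99 (adjusted p = 0.071), and with the array set as a block, or without vehicle replicate 2, 2.48 (adjusted p = 0.134). Pknox2 rose by 0.77 ± 0.18, or 1.70-fold (adjusted p = 0.0387). It was 0.56 without the 48 h array (adjusted p = 0.308), 0.65 with the block (adjusted p = 0.26) and 0.62 with arrays centred on their medians (adjusted p = 0.0542). The array medians over genes were 0.14 higher late in ATRA than in vehicle, while the median change over genes was -0.02.

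The other 4 members did not pass late in ATRA. Pbx3 differed by 0.84 ± 0.22 (adjusted p = 0.0554), and its call depended on the vehicle array: 0.56 against replicate 1 alone (adjusted p = 0.381) and 1.11 against replicate 2 alone (adjusted p = 0.00871). With both arrays and the same 0.84 it passed when only genes above the median mean level were tested (adjusted p = 0.0458). Meis3 differed by 0.58 ± 0.22 (adjusted p = 0.153), and by 1.01 without the 24 h array (adjusted p = 0.0108). Pknox1 differed by 0.00 ± 0.11 (95% interval -0.25 to 0.25), and Tgif1 by -0.12 ± 0.20 (adjusted p = 0.817). Early in ATRA, 1 of 8 members was called, against 1.25% of all genes, 0.853% higher. This was Pbx2, at 0.94 ± 0.14, or 1.91-fold (0.63 to 1.24, adjusted p = 0.00716), and at 0.82 without the 2 h array (adjusted p = 0.149). Tgif1 early in ATRA was -0.48 ± 0.20 (adjusted p = 0.424), with -0.85 against vehicle replicate 1 alone (adjusted p = 0.0195) and -0.11 against replicate 2 alone (adjusted p = 0.76).

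**Figure D2:**
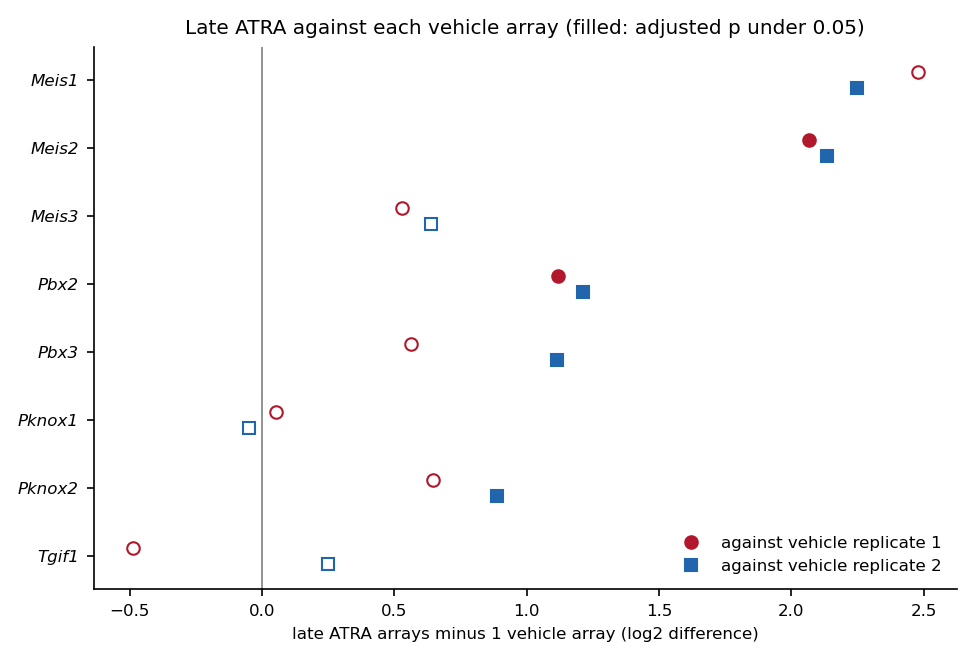
Late ATRA level (mean of 24 h and 48 h) minus each vehicle array, in log2 units, for the 8 genes (circles, replicate 1; squares, replicate 2; filled, adjusted p under 0.05 in limma). Meis1, Meis2 and Pbx2 lie far to the right of 0 against either vehicle array, whereas Pbx3 and Tgif1 shift by 0.55 and 0.74 with the vehicle array used.

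Late in BMS961, 2 of 8 members rose, against 1.26% of all genes called and 0.818% called higher. Meis2 rose by 1.48 ± 0.29, or 2.79-fold (adjusted p = 0.0303), and Pbx2 by 0.90 ± 0.14, or 1.86-fold (adjusted p = 0.00957). Without the 24 h array both were lost, Meis2 at 1.27 (adjusted p = 0.34) and Pbx2 at 0.72 (adjusted p = 0.174). Meis2 was also lost without the 48 h array, at 1.69 (adjusted p = 0.173), and with centred arrays, at 1.43 (adjusted p = 0.0516). Meis1, at 2.24 ± 0.52, did not pass (adjusted p = 0.0688). Early in BMS961 none of the 8 was called by limma, against 0.0401% of all genes (8 genes), and 1 had an unadjusted p under 0.05. Without vehicle replicate 2, 1441 genes were called, Tgif1 among them. With both vehicle arrays, Pbx2 early in BMS961 stood at 0.48 ± 0.14 (adjusted p = 0.695).

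Late in BMS753, 1 of 8 members rose, against 0.186% of all genes called, 0.171% higher. Pbx2 rose by 0.82 ± 0.14, or 1.77-fold (adjusted p = 0.0464), close to the threshold. It was lost with quantile normalization (0.72, adjusted p = 0.0948), with centred arrays (0.84, adjusted p = 0.084), without the 24 h array (0.91, adjusted p = 0.298) and without the 48 h array (0.73, adjusted p = 0.807). Meis1 differed by 0.95 ± 0.52 (adjusted p = 0.662) and Meis2 by 0.85 ± 0.29 (adjusted p = 0.39). Early in BMS753 limma called none of the 8 and 0% of all genes, with 1 member at an unadjusted p under 0.05. Without vehicle replicate 2, 1288 genes were called, Tgif1 among them.

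In BMS641, limma called no member and 0% of all genes, early or late, and no member had an unadjusted p under 0.05. Without vehicle replicate 2, 1466 genes were called early, Tgif1 among them, and 1024 late with no member. Late in BMS641 the change was 0.11 for Meis1 (95% interval -1.03 to 1.25), 0.09 for Meis2 (-0.53 to 0.72) and -0.01 for Pbx2 (-0.31 to 0.29). The Pbx2 interval leaves out the 0.82 found late in BMS753, and the Meis2 interval leaves out the 0.85. The Meis1 interval is too wide to leave out the 0.95 found there. Those BMS753 values have errors of their own, and limma called none of these genes late in BMS753 against BMS641.

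**Figure D3:**
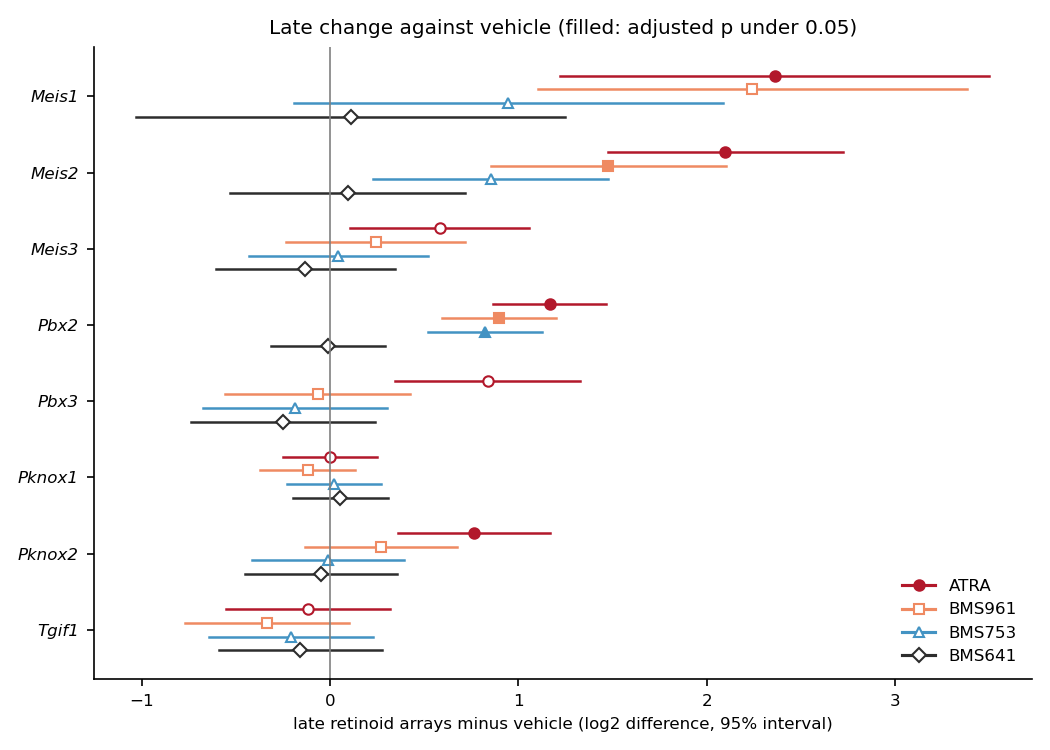
Late level (24 h and 48 h) minus vehicle in log2 units for the 8 genes in each retinoid, with 95% intervals from limma. Filled points passed an adjusted p of 0.05: Meis1, Meis2, Pbx2 and Pknox2 in ATRA, Meis2 and Pbx2 in BMS961, Pbx2 in BMS753 and none in BMS641.

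At single times, with 1 array each and no test, 12 of 128 member values were at least 2-fold above both vehicle arrays, and none was as far below. At 24 h these were Meis2 and Pbx2 in ATRA (0.532% of all genes were as far above), and Meis1 and Meis2 in BMS961 (0.466%). At 48 h they were Meis1, Meis2, Meis3 and Pbx2 in ATRA (3.26%), Meis1 and Meis2 in BMS961 (1.01%), and Meis1 and Meis2 in BMS753 (0.251%). None came from 2 or 6 h, and none from BMS641. At 1.5-fold the number was 20 and at 3-fold it was 4.

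Markers of primitive and parietal endoderm, cell types that F9 cells can form, stood high on average beside Meis1 and Meis2 at 48 h in ATRA and BMS961. In BMS753 their average lay within the vehicle pair, above vehicle replicate 2 and BMS641. All 11 were measured, and their mean level was 7.05 and 6.42 in the vehicle arrays. At 48 h it was 9.34 in ATRA, 8.54 in BMS961, 7.01 in BMS753, within the vehicle pair, and 6.61 in BMS641. At 24 h it was 7.12, 7.13, 6.67 and 6.47 in the same order, so that Meis1 at 7.07 and Meis2 at 8.40 in BMS961 stood beside a marker level near that of vehicle replicate 1 and above those of vehicle replicate 2 and of BMS641 at 24 h. In BMS753 at 48 h more single markers lay above both vehicle arrays than below both. Gata6 at 8.03 lay above both (7.08 and 6.03), and Lamb1 at 7.53 lay below both (8.32 and 8.03). Late in ATRA 3 of the 11 rose, the endoderm transcription factors Gata6, Gata4 and Sox7. Of the 8 F9 stem cell markers, 4 fell late in ATRA (Sox2, Zfp42, Tdgf1 and Utf1). Late in BMS961, Gata6 rose and Utf1 fell. Of the neural markers, 5 of 6 measured, Pax6 rose and Tubb3 fell late in ATRA, and no visceral endoderm or fibroblast marker (6 each) was called in any late comparison with vehicle. Over the 18 arrays the mean level of the fibroblast markers stayed between 4.89 and 5.42. The part of these markers in the member levels was not tested.

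ATRA and BMS753 can be set against BMS641 at a matched dose of 1 µM and matched times. Late, 6 of 8 members were higher in ATRA than in BMS641, against 14.8% of all genes called and 7.81% called higher. The differences were 2.25 ± 0.52 for Meis1 (adjusted p = 0.016), 2.01 ± 0.29 for Meis2 (adjusted p = 0.00254) and 0.71 ± 0.22 for Meis3 (adjusted p = 0.0475). For Pbx2 the difference was 1.18 ± 0.14 (adjusted p = 0.00121), for Pbx3 1.09 ± 0.22 (adjusted p = 0.0103) and for Pknox2 0.81 ± 0.18 (adjusted p = 0.0149). With the array set as a block none of the 6 passed, at 2.48 for Meis1 (adjusted p = 0.613), 1.94 for Meis2 (adjusted p = 0.365) and 1.08 for Pbx2 (adjusted p = 0.233), and only 13 genes of all were called in place of 2948. In the same comparison without the block, 7 of the 11 primitive and parietal endoderm markers and 1 of 6 visceral endoderm markers, Cubn, were higher, and 4 of 8 F9 stem cell markers and 1 of 6 fibroblast markers, Thy1, were lower. Their part in the member differences was not tested. The block leaves ATRA to be linked to BMS641 through the 2 vehicle arrays alone. In that fit Meis3 was 0.60, Pbx3 0.54 and Pknox2 0.57. The Meis3 call was also lost with quantile normalization (0.54, adjusted p = 0.0935), centred arrays (0.56, adjusted p = 0.078), no common steps (adjusted p = 0.0698) and without the 24 h BMS641 array (0.86, adjusted p = 0.106). Pbx3 was lost without that array as well (1.02, adjusted p = 0.0785). Without the 48 h BMS641 array 1 of the 6, Pbx2, passed. Meis3, Pbx3 and Pknox2 were also lost without the 48 h ATRA array, at 0.29, 1.09 and 0.60 (adjusted p = 0.445, 0.0605 and 0.131). Pknox1 differed by -0.05 (95% interval -0.30 to 0.20) and Tgif1 by 0.04 (-0.40 to 0.47).

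Early, Pbx2 was the 1 member of 8 that differed between ATRA and BMS641, against 1.6% of all genes called, 0.963% higher. It was higher in ATRA by 0.98 ± 0.14 (adjusted p = 0.00658). With the array set as a block it was 0.89 (adjusted p = 0.261), and it was also lost without the 2 h ATRA array (0.87, adjusted p = 0.121) or without either BMS641 array (0.99 and 0.97, adjusted p = 0.0806 and 0.128). Between BMS753 and BMS641, which differ in the receptor the labels assign them, limma called no member and 0% of all genes, early or late. Unadjusted, 1 member early and 2 late had a p under 0.05. Late, Pbx2 differed by 0.83 ± 0.14 (95% interval 0.53 to 1.13, adjusted p = 0.155), Meis2 by 0.76 ± 0.29 (0.14 to 1.38) and Meis1 by 0.84 ± 0.52 (-0.30 to 1.98). Leaving out either vehicle array brought Pbx2 past the threshold with the same difference (adjusted p = 0.0431).

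At single times, 16 of 96 member values in the other retinoids were at least 2-fold above BMS641 at the same time. In ATRA these were Pbx2 at 2 h (1.12% of all genes were as far above), Pbx3 at 6 h (1.35%), Meis2 and Pbx3 at 24 h (2.42%) and 6 members at 48 h (5.34%). In BMS961, at a lower dose, they were Meis1 and Meis2 at 24 h (0.767%) and at 48 h (1.61%). In BMS753 they were Meis1 and Meis2 at 48 h (0.441%). Pbx3 in ATRA stood 1.13, 1.14 and 1.04 above BMS641 at 6, 24 and 48 h. In BMS961 and BMS753 Pbx3 differed from BMS641 by at most 0.29 in either direction.

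**Figure D4:**
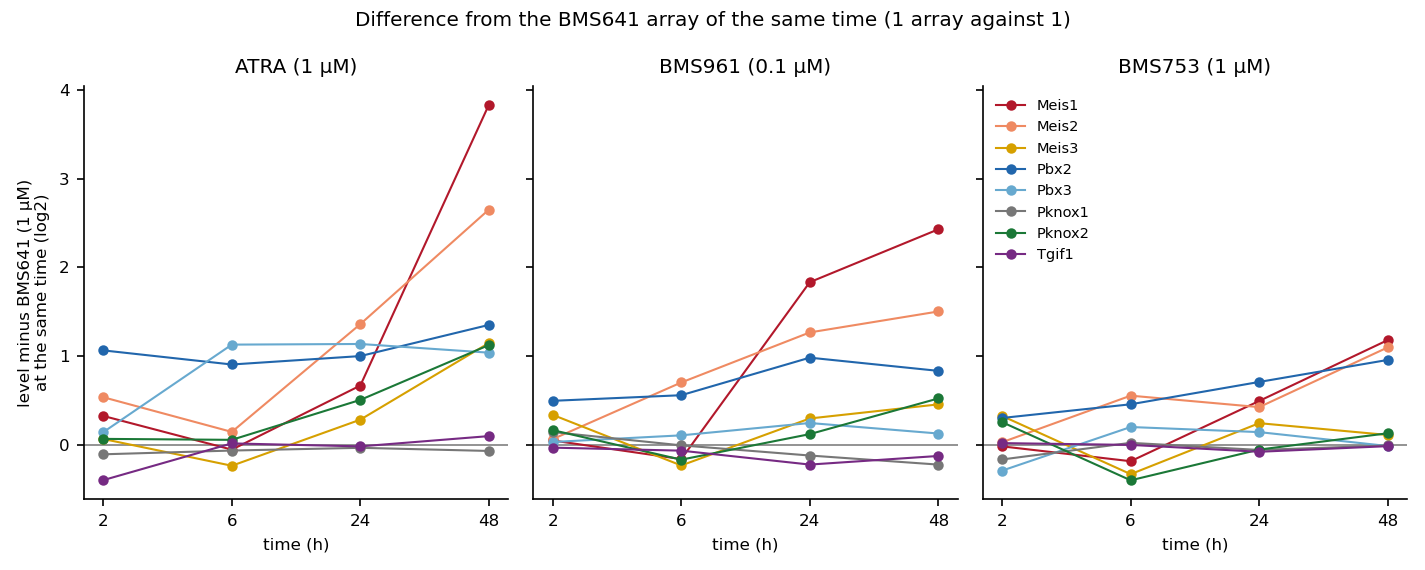
Log2 level in ATRA, BMS961 or BMS753 minus that in BMS641 at the same time, against time in hours, 1 line per gene and 1 array on each side of every difference. Meis1 and Meis2 stand highest at 48 h in all 3 retinoids, and Pbx2 in ATRA is already at 1.06 at 2 h. BMS961 was used at 0.1 µM and the others at 1 µM.

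Between early and late in ATRA, 3 of 8 members rose, against 7.27% of all genes called and 4.95% called higher. Meis2 rose by 2.09 ± 0.29 (adjusted p = 0.00439), Meis1 by 2.24 ± 0.52 (adjusted p = 0.0267) and Pknox2 by 0.71 ± 0.18 (adjusted p = 0.0395). Meis2 passed in each of the 12 other settings run, not all of them separate checks. Meis1 was lost without the 2 h array (2.37, adjusted p = 0.189), the 6 h array (2.11, adjusted p = 0.144) or the 48 h array (0.87, adjusted p = 0.0999). Pknox2 was lost without the same arrays, at 0.55, 0.87 and 0.50 (adjusted p = 0.356, 0.0842 and 0.341). Pbx2 moved by 0.23 ± 0.14 between the phases (adjusted p = 0.393). In BMS961, 1 of 8 members rose from early to late, against 0.767% of all genes called and 0.502% called higher. This was Meis2, at 1.42 ± 0.29 (adjusted p = 0.0477), which was lost in 7 of 12 other settings, while Meis1 stood at 2.31 ± 0.52 (adjusted p = 0.0673). From early to late limma called none in BMS753 (0.00502% of all genes, 2 members at an unadjusted p under 0.05) and none in BMS641 (0% and 0 members).

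Over the 18 arrays Meis1 and Meis2 had a Pearson correlation of 0.94, and Meis3 and Pknox2 of 0.88. Meis1 correlated with Pknox2 at 0.81 and with Meis3 at 0.80. Pbx2 was closest to Meis2 (0.76), and Pbx3 to Pknox2 (0.69). Tgif1 correlated with no other member above 0.34. These values are a description, since arrays of 1 retinoid or set share their source. Among 4307 genes that spanned at least 1, the 3 with the highest correlation with Meis1 were Slc35g2 (0.97), the semaphorin gene Sema4c (0.97) and the kinase gene Map3k3 (0.97). For Meis2 they were Bmi1 (0.96), a Polycomb gene, Skap2 (0.95) and Maged1 (0.95). For Pbx2 they were Cotl1 (0.97), Rarb (0.96), the retinoic acid receptor β gene, and Slc26a2 (0.95), a sulphate transporter gene. Meis3 was most like Eml1 (0.95), Plac1 (0.94) and Thbs1 (0.94), which encodes a matrix glycoprotein. Pbx3 was most like the chemokine receptor gene Cxcr4 (0.92), Gpcpd1 (0.92) and Numb (0.92), an inhibitor of Notch signalling. Pknox2 was most like Asphd2 (0.97), Zfpm1 (0.96), which encodes a GATA cofactor, and St3gal6 (0.95). For Tgif1 the nearest were lower, at 0.83 for Cyb5r1, 0.80 for Lrrc31 and 0.79 for Uap1l1. Pknox1 spanned less than 1 and was not compared.

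Other genes of the same complexes were read from lists. Of 18 Hox genes of clusters A and B, whose products bind DNA with PBX or MEIS, 16 were measured, and late in ATRA 11 rose and none fell (median change 1.52, against -0.02 over all genes). Hoxa5 rose by 4.56 ± 0.18 (adjusted p = 3.37e-07) and Hoxb2 by 3.75 ± 0.33 (adjusted p = 0.000241). Early in ATRA 4 of the 16 rose, Hoxa5, Hoxb4, Hoxb5 and Hoxb6. Late in BMS961 2 rose, Hoxa5 by 2.91 ± 0.18 and Hoxb4 by 1.27 ± 0.17 (adjusted p = 5.18e-05 and 0.00487), and late in BMS753 and BMS641 limma called none. Of 10 other TALE genes 9 were measured, and 1, the Iroquois gene Irx5, rose late in ATRA, by 0.80 ± 0.12 (adjusted p = 0.00668), with a median of 0.08 over the 9. Of 11 genes for partners of TGIF1 or PBX 9 were measured, and 1, the corepressor gene Ctbp2, fell late in ATRA, by -0.89 ± 0.13 (adjusted p = 0.00411). It also fell late in BMS961, by -0.66 ± 0.13 (adjusted p = 0.0287). Rarb, a direct retinoid target, rose by 3.71 ± 0.35 late in ATRA (adjusted p = 0.00043) and by 2.31 ± 0.35 late in BMS753 (adjusted p = 0.0382). It was also called higher late in BMS961. The vehicle arrays were far apart for Rarb, at 5.79 and 4.45.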

How the data were processed

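Total RNA of F9 cells was labelled with biotin and measured on Affymetrix whole-transcript arrays, per the labels. The authors deposited log2 levels per probe set, and the submitters' processing notes name RMA and Affymetrix Expression Console 1.1. How the arrays were grouped for normalization is not given in the sources used here. Precision is limited by the number of arrays.

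Of 35556 probe sets, 21789 had 1 gene symbol in the platform annotation, 1621 had several and 12146 were not listed. A gene was its probe set with 1 symbol, or, for 999 genes with several, the one with the highest mean, with no filter on dim genes. Groups came from the titles. With limma 3.58.1 in R 4.3.3, a model of 9 group means (early and late for each retinoid, and vehicle) and 2 steps in time common to the retinoids was fitted to the 18 arrays. It left 7 residual degrees of freedom and an eBayes prior of 4.55. The residual spread is that of the vehicle pair and of retinoid time courses that depart from the common steps, so Meis1, with an unequal course, has a large error. There were 16 comparisons, each adjusted by Benjamini-Hochberg over 19938 genes, and intervals are unadjusted. BMS961 was not tested against BMS641 because the doses differ. The fit was tested on simulated data, with independent noise around a single mean per gene and known folds added to some genes. Those data held no array set and no time courses that differ between retinoids, so how the fit handles these was not tested.

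Other settings were quantile normalization, centring of each array on its median, restriction to genes above the median mean level, averaging over probe sets, robust eBayes with a trend, a fit without the common steps, the array set as a block, leaving out each array, and single-time folds of 1.5 and 3. These settings were not all separate checks. Each member has 1 probe set, so averaging left its own levels unchanged. For ATRA against vehicle, the block gave the same fit as leaving out vehicle replicate 2. In comparisons without vehicle, leaving out either vehicle array gave the same fit. The members, the lists, the tests and the array set were chosen with earlier results of these data known. All 8 members are named, with the 3 most correlated genes of each member that spans at least 1, and called genes of the lists. All 8 matched the RefSeq gene table, and 5 of 8 had a RefSeq promoter entry (GRCm38.p6). Tables and figures were made in Python 3.11.15 (numpy 2.4.6, pandas 2.3.3, matplotlib 3.10.9).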

Additional observations from a re-analysis of the deposited data

Results flagged for a closer look

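The change from vehicle differed between ATRA and BMS641 for 7 of the member comparisons tested at the same dose, because the difference between the retinoids itself passed the limma test. Early this was 1 of 8 members, against 1.6% of all genes called: Pbx2, higher in ATRA by 0.98 (adjusted p = 0.00658). Late there were 6 of 8 members, against 14.8% of all genes called. They were Meis1 by 2.25 (adjusted p = 0.016), Meis2 by 2.01 (adjusted p = 0.00254) and Meis3 by 0.71 (adjusted p = 0.0475). The others were Pbx2 by 1.18 (adjusted p = 0.00121), Pbx3 by 1.09 (adjusted p = 0.0103) and Pknox2 by 0.81 (adjusted p = 0.0149). Of these, Meis3 and Pbx3 did not pass late against vehicle in ATRA or in BMS641. ATRA was the higher in all 7, and with the array set as a block none of them passed.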

How the results depend on the processing

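Of 1456 values of single members under other settings, 1387 kept their side of the threshold, with direction checked only where a fit called the member. Another 54 kept their direction and lost the call, 15 gained one, and none called in either fit changed sign. Most of the 1456 values were for members not called in the main fit, which had no call to lose. All 54 losses fell on the smaller part that the main fit had called. With a block for the set of arrays, the members called were 2 in place of 1 early in ATRA against vehicle, 2 in place of 4 late, 0 in place of 1 in ATRA early against BMS641 early, 0 in place of 6 in ATRA late against BMS641 late, and 1 in place of 0 in BMS753 late against BMS641 late. Among all genes the block gave 455 calls in place of 249, 175 in place of 940, 10 in place of 319, 13 in place of 2948 and 38 in place of 0 in these comparisons, and 716 in place of 252 late in BMS961 and 243 in place of 37 late in BMS753 against vehicle. With arrays centred on their median there were 1 in place of 2 late in BMS961 against vehicle and 0 in place of 1 late in BMS753, where quantile normalization also gave 0 (1 gene of all in place of 37). Among genes above the median level, which holds 5 members, 3 were called in place of 6 in ATRA late against BMS641 late. In ATRA late against ATRA early it was 1 in place of 3. Both falls come from the filter. Meis1, Meis3 and Pknox2 lie below the median and were not tested, and each called member that was tested stayed called. Of all genes in this setting, 2815 of 9969 and 1479 of 9969 were called in these comparisons, against 2948 and 1449 of 19938. In BMS961 late against early, quantile normalization, centring and no common steps each gave 0 in place of 1, and no common steps 69 genes of all in place of 153. Small counts of all genes also moved: early in BMS961 8 became 3 (quantile), 2 (centred) and 5 (no common steps), late in BMS753 37 became 21 (centred), and late in BMS641 0 became 2 (block). In BMS753 late against BMS641 late 0 became 2 with averaged probe sets, and in BMS753 late against early 1 became 0 to 6 over the settings that kept all arrays.

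Leaving out 1 array at a time gave 0 to 2 members early and 2 to 5 late in ATRA against vehicle, 0 to 1 early and 0 to 3 late in BMS961, 0 to 1 early and 0 to 1 late in BMS753, and 0 to 1 early in BMS641. It gave 0 to 1 in ATRA early against BMS641 early, 1 to 6 late, and 0 to 1 in BMS753 late against BMS641 late. It gave 1 to 4 in ATRA late against early and 0 to 2 in BMS961 late against early. Over all genes it gave 41 to 837 early and 148 to 3594 late in ATRA against vehicle, 0 to 1441 and 19 to 815 in BMS961, 0 to 1288 and 0 to 739 in BMS753, and 0 to 1466 and 0 to 1024 in BMS641. It gave 17 to 1008 in ATRA early against BMS641 early, 67 to 4188 late, 0 to 38 in BMS753 late against BMS641 late, 31 to 2554 in ATRA late against early, 1 to 767 in BMS961 and 0 to 103 in BMS753. The highest early BMS counts against vehicle came without vehicle replicate 2. Tgif1 early was called lower against vehicle replicate 1 alone in ATRA (-0.85), BMS961 (-0.71), BMS753 (-0.65) and BMS641 (-0.65), and late in BMS961 (-0.70). Blocked comparisons with vehicle rest on 1 vehicle array. Pairing by replicate was not possible because only the vehicle arrays carry replicate numbers. Arrays of the same time were matched through the common steps in time. With 1 array for each retinoid and time, repeated cultures were not measured, and signal over background is not known for the dim Meis1 and Pknox2 probe sets in vehicle.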
